A study of Homo sapiens with 12 samples.

Results

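The Hedgehog pathway genes described here were 10 of the 58302 genes counted in the series. They were SHH, the secreted ligand; SCUBE1, a secreted relative of the proteins that carry Hedgehog ligand away from the cell; the receptor PTCH1 and the ligand-binding inhibitor HHIP; the co-receptors BOC, CDON and GAS1; and the transcription factors GLI1, GLI2 and GLI3. They were selected on their levels and fold changes between these same 6 groups, in that they were listed by name with those results known. Their levels and fold changes are therefore given as a description, with no p-value.

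RNA was sequenced from 12 samples of H1 cells, a human embryonic stem cell (ESC) line, in 6 groups of 2. WT is unedited H1. In dKO the parts of UTX (KDM6A) and JMJD3 (KDM6B) that encode the catalytic JmjC domain were deleted with Cas9 and puromycin-selected donors. JMJD3 was edited first, and UTX then within a single JMJD3-deficient line. In these RNA samples a genotype effect therefore cannot be told apart from an effect of that clone. The study reports that re-expressed JMJD3 and UTX rescued the differentiation defect of dKO cells, but no rescued cells are among these samples. Both proteins remove the repressive histone mark H3K27me3. Neural progenitor cells (NPCs) were made from both lines by dorsomorphin and SB431542, which inhibit BMP and TGF-beta signalling, and were expanded with bFGF and EGF. They were sampled at passage 2 and at passage 4. The sample labels name passage 4 only, and passage 2 was taken from the study's text. Cells called WT-D28 and dKO-D28 came from passage 2 NPCs that were kept until day 28 with BDNF, GDNF and cAMP and without bFGF and EGF, a medium that lets NPCs differentiate into neurons and glia. No Hedgehog ligand or agonist is listed for any group. Nothing in the labels says that the 2 samples of a group came from separate cultures, so the spread between them may be technical. The standard errors below come from a fit that pools this spread over all 6 groups. A wide pair in any group, such as dKO-D28, can therefore widen the error of a comparison that leaves it out.

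Hedgehog signalling is read by a cell in a simple relay. Without ligand, PTCH1 holds back the membrane protein SMO, and GLI3 and GLI2 are trimmed to forms that keep target genes off. When SHH binds PTCH1, with the help of BOC, CDON or GAS1, SMO is released at the primary cilium and full-length GLI proteins switch target genes on. PTCH1, HHIP and GLI1 are themselves targets, and PTCH1 and HHIP then soak up ligand, whereas GAS1, CDON and BOC are lowered by the signal in many tissues. In the neural tube and forebrain SHH is made on the ventral side and specifies ventral progenitors, while GLI3 and BMP signals act on the dorsal side.

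GLI proteins bind a short word in DNA, and it was looked for in the 250 bases before the annotated start sites of these genes. The word searched was TGGGTGGTC, or GACCACCCA on the other strand. RefSeq windows of 300 bases (250 before and 50 after a start, GRCh38.p14) were matched for 7 of the 10 genes, GLI2, BOC, HHIP, SHH, GAS1, PTCH1 and CDON, with 15 windows in all. There was no entry for GLI1, GLI3 and SCUBE1. In the 250 bases before the start, the word stood in 1 of the 15 windows, at PTCH1, and in 70 of all 35116 windows (0.199%). The windows before a start site are shown for the genes that were highest in WT-D28 cells. They are given 5′ to 3′ on the strand of the gene, with the GLI word in capitals. PTCH1 has 5 windows, and the word is absent from 4 of them, among them the one at its outermost start (chr9:95516972-95517221). The PTCH1 window shown (chr9:95509267-95509516, minus strand) holds the word and lies inside the annotated span of the gene, before an internal start and outside its exons. The HHIP window (chr4:144645906-144646155, plus strand) and the SHH window (chr7:155812464-155812713, minus strand) end at the base before the first exon.
PTCH1: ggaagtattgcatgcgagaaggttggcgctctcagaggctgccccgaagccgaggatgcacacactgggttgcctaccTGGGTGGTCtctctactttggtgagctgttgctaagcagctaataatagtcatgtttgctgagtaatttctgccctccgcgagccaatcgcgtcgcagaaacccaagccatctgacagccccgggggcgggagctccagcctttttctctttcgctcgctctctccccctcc
HHIP: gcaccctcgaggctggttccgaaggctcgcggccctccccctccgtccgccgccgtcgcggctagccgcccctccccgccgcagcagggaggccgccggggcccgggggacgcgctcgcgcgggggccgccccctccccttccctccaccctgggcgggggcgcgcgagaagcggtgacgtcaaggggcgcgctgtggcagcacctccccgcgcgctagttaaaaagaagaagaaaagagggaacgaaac
SHH: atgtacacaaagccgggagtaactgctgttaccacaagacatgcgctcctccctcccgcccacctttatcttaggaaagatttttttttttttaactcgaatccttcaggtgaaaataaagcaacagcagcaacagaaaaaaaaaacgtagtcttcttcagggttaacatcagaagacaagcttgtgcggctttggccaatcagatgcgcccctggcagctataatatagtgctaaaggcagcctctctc
In the PTCH1 window the word begins 172 bases before the start site. GC content was 57.2% in this window, 74.8% at HHIP and 44.4% at SHH, and the windows held 13, 34 and 7 CpG sites. The match describes the letters only. Its absence from a window says nothing about binding there.

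The deposited values were raw counts of reads per Ensembl gene on hg38. Levels are given as CPM, the count of a gene relative to the total of its library after edgeR's TMM scaling. Total counts ran from 756942 to 10601172 per sample. The NPCs at passage 2 were the shallowest and the day 28 cells the deepest on average, so that 3 counts equal 0.297 to 3.86 CPM depending on the sample (counting error only). Replicates of dKO-D28 stood apart most, with a chi-square between the counts of the pair, divided by its degrees of freedom, of 14, against 1.55 to 3.3 in the other groups, and results at day 28 are also given without each dKO-D28 sample. The deletion cannot be checked with gene-level counts, because most of each gene's exons remain. Over the 12 samples KDM6A was at 27.3 to 60.5 CPM and KDM6B at 114.9 to 201.7 CPM. KDM6A was lower in dKO at passage 2 (39.2 and 38.3 against 60.5 and 53.6 CPM in WT) and passage 4 (31.4 and 27.3 against 49.7 and 53.1 CPM). At day 28 its genotypes overlapped (58.5 and 31.9 CPM in dKO, 43.6 and 48.3 CPM in WT). KDM6B overlapped at passage 2, and was higher in dKO at passage 4 and lower at day 28. Of 4 pluripotency genes POU5F1 and NANOG had 0 counts in every sample. The other two, LIN28A, which early neural progenitors also express, and DPPA4, had a summed level of 89.2 to 129 CPM at passage 2. At passage 4 it was 1.65 and 1.26 CPM in WT, against 33.9 and 37.2 CPM in dKO, and at day 28 it was 0.946 and 0.595 CPM in WT, against 45.6 and 85.0 CPM in dKO, where LIN28A was at 31.8 and 79.1 CPM. Their part in the results below was not tested. The progenitor genes SOX1, SOX2 and NES were present in all groups. PAX6 was at 11.7 and 11.5 CPM in WT-D28 cells and at 187 and 351 CPM in dKO-D28 cells. Other progenitor genes did not share this direction at day 28. SOX1, SOX2, NES and FABP7 were higher in WT, and VIM overlapped. NES was at 908 and 928 CPM in WT-D28 and at 611 and 608 CPM in dKO-D28. Over 7 progenitor genes the summed level was 4399 and 4451 CPM in WT-D28 and 4082 and 3225 CPM in dKO-D28.

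At passage 2 the fold change between WT and dKO NPCs was at most 1.32 for 8 of the Hedgehog genes, and the exceptions were GLI1 (5.21-fold higher in dKO) and HHIP, whose 3 counts in dKO and 1 in WT gave a ratio of 2.3 (95% exact counting interval 0.185 to 121). At passage 4 SCUBE1, BOC and GAS1 were higher and SHH and GLI1 lower in dKO. At day 28 SHH, PTCH1, HHIP and GLI1 were lower in dKO and the other 6 genes were higher, each more than 4-fold. A gene is said to be called where edgeR's quasi-likelihood test, fitted over the 13454 genes whose counts averaged 20 or more, gave a fold change above 2 at an unadjusted p below 0.05. Of the 10 genes, 9 passed this filter. SHH and HHIP passed only through their high counts in WT-D28 (6.2 and 4.7 counts on average in the other 10 samples), and GLI1, with a mean of 17.8 counts, did not pass. For GLI1 the fold changes come from a fit of all 34982 genes that had a count in any library. At passage 2, 0 of the 9 genes were called, with 4.43% of all tested genes called. At passage 4, 4 of 9 were called, 3 higher and 1 lower in dKO, with 22.3% of all genes called (11.1% higher and 11.2% lower). At day 28, 9 of 9 were called, 6 higher and 3 lower in dKO, with 24.2% of all genes called (12.4% higher and 11.7% lower). Because the genes were listed for these contrasts, nothing is read from these shares.

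**Figure D1:**
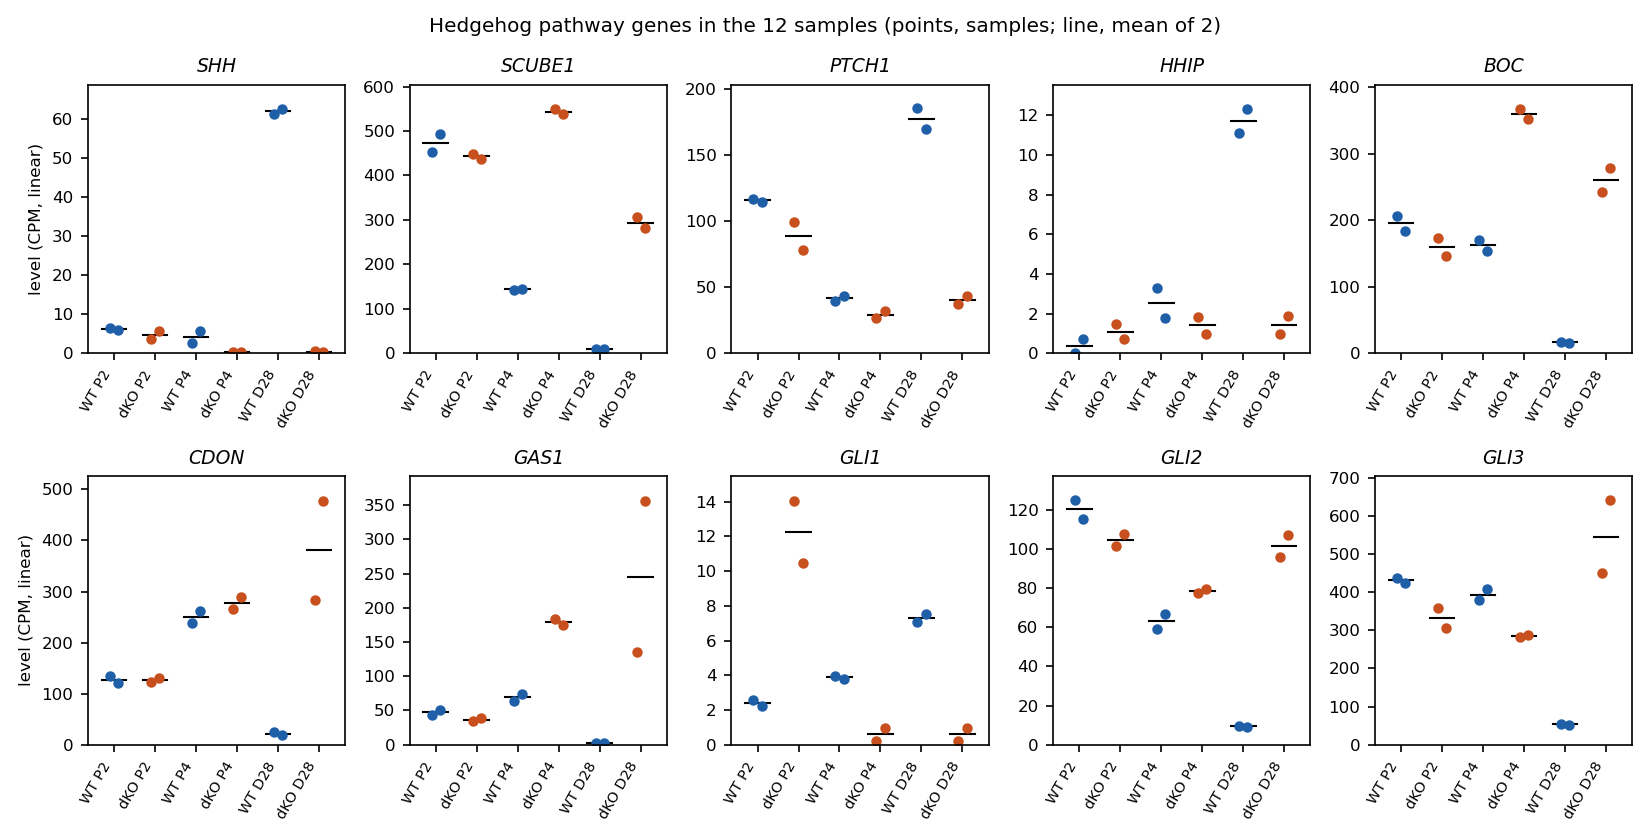
Level of each Hedgehog pathway gene (CPM, linear axis starting at 0) in the 2 samples of each group (blue, WT; orange, dKO; P2 and P4, NPC passages; D28, day 28), with a line at the mean. SHH, PTCH1 and HHIP are highest in WT-D28, whereas SCUBE1, BOC, CDON, GAS1, GLI2 and GLI3 are lowest there and the points of dKO-D28 lie well above them.

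SHH (ENSG00000164690, chr7:155799980-155812463, minus strand), the ligand, was present in quantity in a single group. Its level was 61.5 and 62.5 CPM in the WT-D28 samples and 0.478 and 0.19 CPM in dKO-D28. These values rest on 520 and 631 counts against 2 and 1, a ratio of 195 (95% exact counting interval 66.7 to 949). The log2 fold change was -7.47 ± 0.36 (SE), and -8.12 and -6.93 without dKO-D28 sample 1 or 2. In NPCs SHH was at 6.43 and 5.88 CPM in WT, against 3.7 and 5.57 CPM in dKO at passage 2, and the samples of the genotypes lay apart by less than the sum of their SDs. At passage 4 it was at 2.63 and 5.82 CPM in WT and at 0.231 and 0.242 CPM in dKO, where each library held 1 count. The WT to dKO ratio at passage 4 was 18.8 (4.78 to 162). WT-D28 thus stood above all other groups, WT and dKO passage 2 and WT passage 4 did not differ beyond their spread, and dKO passage 4 and dKO-D28 were both under the floor of 3 counts. The other Hedgehog ligands were hardly seen, with IHH and DHH at 0 to 0.239 CPM over the 12 samples.

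SCUBE1 (ENSG00000159307, chr22:43197280-43343372, minus strand) took almost the opposite course. It was at 453 and 493 CPM in WT, against 448 and 438 CPM in dKO at passage 2. At passage 4 it was at 143 and 145 CPM in WT and at 549 and 539 CPM in dKO, a log2 fold change of 1.92 ± 0.11 (SE). At day 28 it was at 8.51 and 10.5 CPM in WT and at 306 and 282 CPM in dKO. The difference at day 28 was 4.94 ± 0.13 on the log2 scale, and 4.88 and 4.99 without dKO-D28 sample 1 or 2. The groups did not overlap at passage 4 or at day 28. Some reads could belong to a gene on the other strand, since the strand setting of the counting is not given in the sources used here. An unnamed gene there, ENSG00000234892, had 75 and 71 counts in dKO at passage 4 and 3 and 3 counts in WT-D28.

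PTCH1 (ENSG00000185920, chr9:95442980-95517057, minus strand), the receptor and a target of the pathway, was at 186 and 170 CPM in WT-D28 and at 37.3 and 43.5 CPM in dKO-D28. The log2 fold change was -2.13 ± 0.14, and -2.02 and -2.25 without dKO-D28 sample 1 or 2. At passage 2 it was at 117 and 115 CPM in WT, against 99.1 and 78.0 CPM in dKO. It was lower at passage 4 in both genotypes, at 39.5 and 43.5 CPM in WT, against 26.5 and 31.6 CPM in dKO. The WT samples lay above the dKO samples at every stage, with fold changes under 2 at passage 2 (-0.39 ± 0.16) and passage 4 (-0.52 ± 0.16). In the order of the groups, WT passage 4 and dKO-D28 did not differ beyond their spread. Of the total counts of PTCH1 over the 12 samples, 69.9% lay in WT-D28.

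HHIP (ENSG00000164161, chr4:144646156-144745271, plus strand), which binds and sequesters the ligand, was low in all groups but WT-D28. There it was at 11.1 and 12.3 CPM, against 0.955 and 1.9 CPM in dKO-D28, where it had 4 and 10 counts. The WT to dKO ratio of counts was 7.93 (4.63 to 14.8), and the log2 fold change was -2.97 ± 0.38 (-2.59 and -3.57 without dKO-D28 sample 1 or 2). In NPCs HHIP ranged from 0 to 3.29 CPM, and below WT-D28 no 2 groups that followed each other in the order of their levels differed beyond their spread, although WT passage 4 (2.53 ± 1.08 CPM, SD, n = 2) lay above WT passage 2 (0.367 ± 0.519 CPM) by more than the sum of their SDs. HHIP-AS1, an antisense gene that overlaps it, had 32 and 31 counts in WT-D28 and 4 and 7 in dKO-D28. Reads from HHIP and HHIP-AS1 cannot be told apart without strand.

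The co-receptors were lowest in WT-D28. BOC (ENSG00000144857, chr3:113211003-113287459, plus strand), a cell-surface protein of the immunoglobulin superfamily, was at 17.3 and 16.0 CPM there and at 243 and 279 CPM in dKO-D28. The log2 fold change was 3.97 ± 0.13, and 4.08 and 3.87 without dKO-D28 sample 1 or 2. At passage 4 BOC was already higher in dKO, at 368 and 352 CPM against 171 and 154 CPM in WT (1.15 ± 0.12). At passage 2 it was at 207 and 184 CPM in WT, against 174 and 147 CPM in dKO. CFAP44, which overlaps BOC on the other strand, did not follow this order, with 344 and 304 counts in WT-D28 and 197 and 314 in dKO-D28.

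CDON (ENSG00000064309, chr11:125955796-126063335, minus strand), the relative of BOC, was at 24.2 and 19.2 CPM in WT-D28 and at 284 and 478 CPM in dKO-D28. Its log2 fold change was 4.14 ± 0.23, and 4.48 and 3.71 without dKO-D28 sample 1 or 2. In contrast to BOC, the genotypes stood close at passage 4, with 238 and 262 CPM in WT, against 266 and 289 CPM in dKO (0.15 ± 0.20), and at passage 2, with 134 and 120 CPM in WT, against 123 and 131 CPM in dKO (0.01 ± 0.24).

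GAS1 (ENSG00000180447, chr9:86944362-86947506, minus strand), a lipid-anchored co-receptor, showed the largest fold change of the genes that were higher in dKO-D28. It was at 1.89 and 2.08 CPM in WT-D28 and at 135 and 356 CPM in dKO-D28. The log2 fold change was 6.93 ± 0.57, and 7.47 and 6.06 without dKO-D28 sample 1 or 2, so the size of the difference depends on which dKO sample is used. At passage 4 GAS1 was at 64.5 and 73.6 CPM in WT and at 183 and 175 CPM in dKO (1.37 ± 0.41). That call was lost without WT passage 4 sample 1 (1.28). At passage 2 it was at 43.7 and 51.4 CPM in WT, against 34.8 and 38.3 CPM in dKO.

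Among the transcription factors, GLI2 and GLI3 went with the co-receptors. GLI3 (ENSG00000106571, chr7:41960949-42264100, minus strand), mainly a repressor of the pathway, was at 55.1 and 51.0 CPM in WT-D28 and at 450 and 642 CPM in dKO-D28. The log2 fold change was 3.36 ± 0.15, and 3.61 and 3.09 without dKO-D28 sample 1 or 2. In NPCs GLI3 was abundant in both genotypes, at 437 and 425 CPM in WT, against 358 and 306 CPM in dKO at passage 2 (-0.38 ± 0.15), and at 379 and 409 CPM in WT, against 283 and 288 CPM in dKO at passage 4 (-0.47 ± 0.14). It was thus lower in dKO NPCs by less than 2-fold and higher in dKO at day 28.

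GLI2 (ENSG00000074047, chr2:120735623-120992653, plus strand), the main activator of the pathway, was at 9.7 and 9.12 CPM in WT-D28 and at 96.0 and 107 CPM in dKO-D28, a log2 fold change of 3.43 ± 0.13 (3.52 and 3.35 without dKO-D28 sample 1 or 2). It was at 125 and 115 CPM in WT, against 101 and 107 CPM in dKO at passage 2. At passage 4 it was at 59.2 and 66.5 CPM in WT, against 77.5 and 79.2 CPM in dKO (0.31 ± 0.12). The dKO-D28 samples overlapped those of dKO passage 2.

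GLI1 (ENSG00000111087, chr12:57459785-57472268, plus strand), a target that is widely used to read pathway activity, had another order. It was highest in dKO NPCs at passage 2, at 14.1 and 10.4 CPM (19 and 15 counts), against 2.57 and 2.2 CPM in WT (2 and 3 counts). The dKO to WT ratio was 5.22 (95% exact counting interval 2.03 to 17.1). At passage 4 the order of the genotypes was turned, with 3.95 and 3.79 CPM in WT, against 0.231 and 0.966 CPM in dKO, and the WT to dKO ratio was 6.54 (2.48 to 21.8). At day 28 GLI1 was at 7.09 and 7.53 CPM in WT-D28 and at 0.239 and 0.951 CPM in dKO-D28, a ratio of 11.5 (5.17 to 32). In the fit that holds GLI1 it was called in each of these contrasts, where 3.36%, 14.7% and 17.3% of the 34982 genes were called. ARHGAP9, which overlaps GLI1 on the other strand, had 0 to 6 counts per sample. In dKO NPCs at passage 2, GLI1 was thus higher than in WT while SHH was at 4.64 ± 1.33 CPM against 6.15 ± 0.393 CPM in WT (mean ± SD, n = 2) and PTCH1 was not higher.

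The course from passage 2 NPCs to day 28 cells also differed between the genotypes. In WT, SHH was higher at day 28 by 3.34 ± 0.31 on the log2 scale and HHIP by 4.56 ± 0.77, the latter from 1 count in both passage 2 libraries together (ratio 25.1, 4.47 to 998). SCUBE1 was lower at day 28 by a log2 fold change of -5.63 ± 0.13, GAS1 by -4.58 ± 0.74, GLI2 by -3.66 ± 0.15, BOC by -3.55 ± 0.14, GLI3 by -3.02 ± 0.15 and CDON by -2.54 ± 0.25. Thus 8 of 9 genes were called in WT, with 24.4% of all genes called, and PTCH1 (0.62 ± 0.14) was not. In dKO, 4 of 9 were called, with 7.15% of all genes called. GAS1 (2.75 ± 0.49) and CDON (1.59 ± 0.22) were higher at day 28, and SHH (-3.75 ± 0.68) and PTCH1 (-1.12 ± 0.15) were lower. GAS1 was still higher without either dKO-D28 sample (3.28 and 1.88), as was CDON (1.91 and 1.16). GLI1 was higher at day 28 in WT (1.74 ± 0.61) and lower in dKO (-4.17 ± 0.57). These comparisons share their WT-D28, dKO-D28 and passage 2 samples with those between genotypes, and they are not independent of them.

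**Figure D2:**
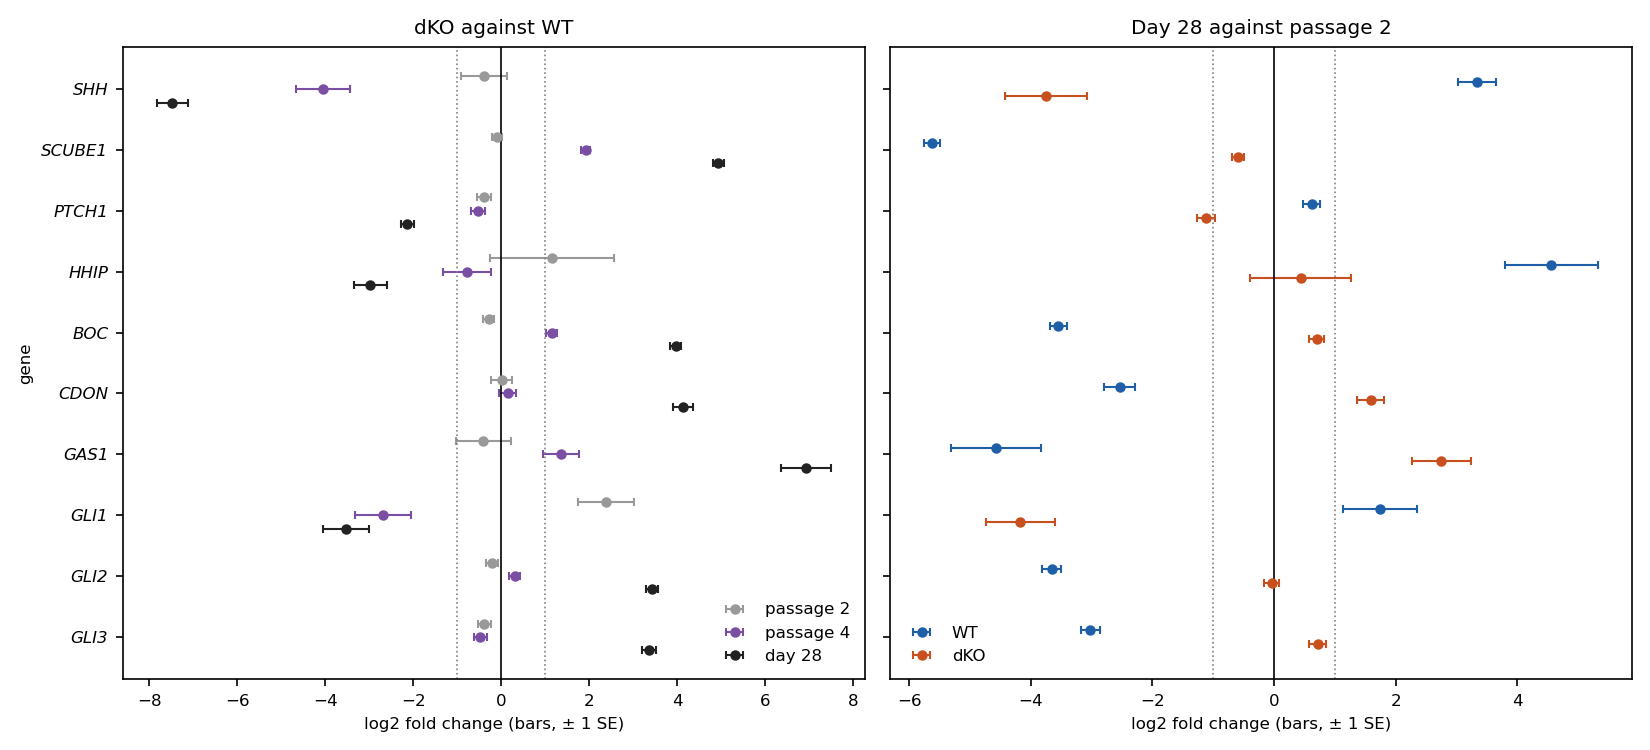
Log2 fold change (x axis, bars ± 1 SE) of each Hedgehog pathway gene (y axis), on the left for dKO against WT at passage 2 (grey), passage 4 (purple) and day 28 (black), and on the right for day 28 against passage 2 in WT (blue) and dKO (orange). Dotted lines mark a fold change of 2. At passage 2 the points other than GLI1 and HHIP lie inside the dotted lines, and at day 28 all lie outside them, with SHH at -7.47 and GAS1 at 6.93. GLI1 comes from the fit of all genes that had a count in any library.

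The difference between the genotypes in this course was largest for GAS1 (7.33 ± 0.90, dKO minus WT) among the genes with a positive difference and for SHH (-7.09 ± 0.78) among those with a negative one. All 9 genes in the fit were called for this difference, with 23.2% of all genes called, but HHIP was not with GC content and gene length offsets (-2.75) or without dKO passage 2 sample 1 (-3.52). The differences of SCUBE1 (5.03 ± 0.17), BOC (4.25 ± 0.18), CDON (4.13 ± 0.33), GLI3 (3.74 ± 0.21) and GLI2 (3.63 ± 0.19) were positive, and those of PTCH1 (-1.74 ± 0.21) and HHIP (-4.12 ± 1.46) negative. GLI1 differed by -5.91 ± 0.82.

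The step from passage 2 to passage 4 was compared in the same way. In WT, 3 of 9 were called, with 19.8% of all genes called. SCUBE1 (-1.72 ± 0.11) and PTCH1 (-1.47 ± 0.16) were lower at passage 4, and HHIP (2.32 ± 1.07) was higher, on 1 count at passage 2 (ratio 5.2, 0.815 to 217). The call of HHIP was lost in 11 alternatives, among them adjusted p-values, DESeq2 and the replicate number as a block, which leave 2 of 9. In dKO, 5 of 9 were called, with 9.83% of all genes called. GAS1 (2.29 ± 0.50), BOC (1.17 ± 0.12) and CDON (1.13 ± 0.22) were higher at passage 4, and SHH (-4.13 ± 0.73) and PTCH1 (-1.60 ± 0.16) were lower. PTCH1 was thus lower in both genotypes, and its difference between them was -0.13 ± 0.22. The difference was called for SHH (-3.67 ± 0.87), SCUBE1 (2.02 ± 0.15) and BOC (1.43 ± 0.17), with 19.3% of all genes called. GLI1 was lower at passage 4 in dKO (-4.27 ± 0.59) and was at 0.79 ± 0.71 in WT.

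Levels of different genes were compared per kilobase of annotated exon. In WT NPCs at passage 2, SCUBE1 (39.0 CPM per kb) and GLI3 (31.2 CPM per kb) stood highest, and SHH (1.18 CPM per kb), GLI1 (0.524 CPM per kb) and HHIP (0.0307 CPM per kb) lowest. In WT-D28, SHH (11.8 CPM per kb) and PTCH1 (10.3 CPM per kb) came first, and GAS1 (0.632 CPM per kb) came last. In dKO-D28 this was turned about, with GAS1 first (78.1 CPM per kb), followed by GLI3 (39.5 CPM per kb), BOC (25.2 CPM per kb) and SCUBE1 (24.2 CPM per kb), and SHH last (0.0638 CPM per kb).

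Markers of several cell types also differed between the groups. Over 7 neuron genes the summed level was 3419 and 3419 CPM in WT-D28 and 1042 and 600.6 CPM in dKO-D28, and at passage 4 it was 4055 and 4599 CPM in WT, against 774.9 and 805.5 CPM in dKO. Over 4 cell cycle genes it was 293 and 300.5 CPM in WT-D28 and 1087 and 1368 CPM in dKO-D28. At passage 4 the sum of the cell cycle genes had the other direction, at 1213 and 1416 CPM in WT, against 805.8 and 840.8 CPM in dKO. At passage 2 it was 1438 and 1378 CPM in WT, against 1349 and 1329 CPM in dKO. Over 5 floor plate genes it was 283.7 and 291.3 CPM in WT-D28 and 58.3 and 65.0 CPM in dKO-D28, but FOXA2, which defines the floor plate, had 0 counts in all 12 samples. Over 6 genes of neural crest and mesenchyme it was 675.2 and 788.6 CPM in dKO and 113.2 and 302.5 CPM in WT at passage 2, 881.3 and 895.6 CPM in dKO and 147.1 and 160.4 CPM in WT at passage 4, and 182.5 and 101 CPM in dKO-D28 against 73.8 and 77.2 CPM in WT-D28. Most of these sums was collagen, with COL1A1 at 564 and 666 CPM in dKO at passage 2, and COL3A1 had the other direction at day 28, at 18.4 and 7.22 CPM in dKO and 51.4 and 54.8 CPM in WT. SOX10, which defines the neural crest, was at 0 to 0.946 CPM over the 12 samples. Over 4 astrocyte genes the summed level was 35.5 and 38.2 CPM in WT-D28 and 7.88 and 8.75 CPM in dKO-D28. At passage 4 it was 53.65 and 45.55 CPM in WT, against 11.54 and 15.46 CPM in dKO. The part of these differences in the levels of the Hedgehog genes was not tested. In bulk RNA, fewer cells of a type and less RNA per cell cannot be told apart.

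The genes whose levels followed a Hedgehog gene most closely were found by the root mean square difference of log2(CPM + 1), centred per gene, over the 12 samples. For SHH they were GAD2 (0.595), ISL1 (0.641) and TOX2 (0.645), with PTCH1 at 1.17 as the nearest Hedgehog gene and 1.94 as the median over all tested genes. GAD2, which makes the transmitter GABA, was at 95.9 CPM in WT-D28 and 4.89 CPM in dKO-D28 on average, and the transcription factor ISL1 was at 53.5 and 1.55 CPM. For GLI1 they were TIMP3 (0.499), MARCHF4 (0.656) and RIPOR2 (0.656), again with PTCH1 (0.858) as the nearest Hedgehog gene and a median of 1.24. TIMP3 shared the high level of GLI1 in dKO NPCs at passage 2, at 86.2 CPM against 31.8 CPM in WT. For GLI3 they were TBC1D1 (0.217), DNAH11 (0.264) and PRR11 (0.291), with GLI2 at 0.37 and a median of 1.18. These are descriptions of likeness over the same 12 samples.

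Other genes of the pathway were followed in the same comparisons. Of 58 other genes of the pathway, in lists of ligands and their release, receptors, signal transduction, the cilium and targets, 48 were tested. At passage 2, 0 were higher and 1 was lower in dKO, where 4.43% of all genes were called. At passage 4, 6 were higher and 6 lower, where 22.3% of all genes were called (11.1% higher and 11.2% lower). At day 28, 10 were higher and 3 lower, where 24.2% of all genes were called (12.4% higher and 11.7% lower). Nothing is read from these counts. The median log2 fold change of the 48 genes at day 28 was 0.219, and that of all tested genes was 0.0026. Without dKO-D28 sample 1, 15 of the 48 were called at day 28, and without sample 2, 12 were. These lists too were chosen with earlier results of these data known, so their calls are a description and no p-value is given.

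Among the receptors and other binding proteins of the ligand, LRP2 (1.57 ± 0.18) and the glypican GPC6 (1.20 ± 0.14) were higher in dKO at day 28, and LRP2 (1.62 ± 0.22) and GPC3 (2.54 ± 0.16) at passage 4. Both LRP2 (-1.93 ± 0.20) and GPC6 (-1.24 ± 0.15) fell from passage 2 to day 28 in WT.

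SMO, which carries the signal from PTCH1 into the cell, was at 68.8 and 66.5 CPM in WT-D28 and at 143 and 191 CPM in dKO-D28. It was higher in dKO at day 28 (1.31 ± 0.15) and at passage 4 (1.13 ± 0.15), where it was at 0.68 and not called with offsets. Of 18 transduction genes tested, 2 were higher in dKO-D28, SMO and EVC (1.01 ± 0.15), and 1 was lower, PRKACB (-2.41 ± 0.13), a catalytic subunit of protein kinase A, where 12.4% of all genes were higher and 11.7% lower. EVC lost its call without dKO-D28 sample 1 (0.83) or WT-D28 sample 2 (0.98). With GC content and gene length offsets 5 were called, KIF7 (1.17) and PRKAR1A (-1.22) being added, and with DESeq2 4 were, TULP3 (1.00) being added. EVC fell (-1.24 ± 0.18) and PRKACB rose (1.81 ± 0.14) from passage 2 to day 28 in WT. SUFU, which tethers GLI proteins, was at 43.3 and 45.4 CPM in WT-D28 and 45.4 and 57.2 CPM in dKO-D28 and was not called. Of 15 cilium genes, 0 were called at day 28 in this test, where 24.2% of all genes were called. At passage 4, where 22.3% of all genes were called, 1 was called, the motor subunit KIF3A (-1.31 ± 0.17). KIF3A was also called at day 28 without dKO-D28 sample 1 (-1.27) and with offsets (-1.15).

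Among the genes of ligand processing and release, 2 of 4 were higher in dKO-D28, the acyltransferase HHAT (1.26 ± 0.18) and SCUBE3 (2.39 ± 0.20), and 1 was lower, DISP2 (-3.96 ± 0.20). Of all genes, 12.4% were higher and 11.7% lower there. SCUBE3 had the same direction as SCUBE1 at passage 4 (1.81 ± 0.23) and in the fall from passage 2 to day 28 in WT (-2.39 ± 0.23). DISP2, a Dispatched-like protein, was at 84.7 and 81.6 CPM in WT-D28 and at 3.86 and 8.81 CPM in WT at passage 2 (3.57 ± 0.27). At passage 4 it was already at 66.8 and 71.35 CPM in WT, against 3.92 and 6.04 CPM in dKO (-3.79 ± 0.22).

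Of the 7 target genes tested, 4 were higher and 1 was lower in dKO-D28, where 12.4% of all genes were higher and 11.7% lower. The 4 higher genes were SFRP1, a Wnt antagonist (3.79 ± 0.21), MYCN (1.61 ± 0.24) and CCND1 (1.07 ± 0.13), which act in proliferation, and RAB34 (1.02 ± 0.15). CCND1 was not called without dKO-D28 sample 2 (0.83), nor RAB34 without WT-D28 sample 2 (0.99). The part of Hedgehog or of other signals in the levels of these target genes was not tested. SFRP1 had the other direction in NPCs, being lower in dKO at passage 2 (-1.10 ± 0.19) and passage 4 (-1.99 ± 0.19). The call at passage 2 was lost without WT sample 1 (-0.94) or dKO sample 2 (-0.89). At passage 4, CCND2 (-1.22 ± 0.14, and -0.97 and not called without WT passage 4 sample 2) was lower as well, and CCND1 (2.37 ± 0.15) and RAB34 (1.81 ± 0.17) were higher. In WT, SFRP1 (-5.42 ± 0.22), MYCN (-1.97 ± 0.28) and CCND2 (-1.41 ± 0.15) fell from passage 2 to day 28.

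**Figure D3:**
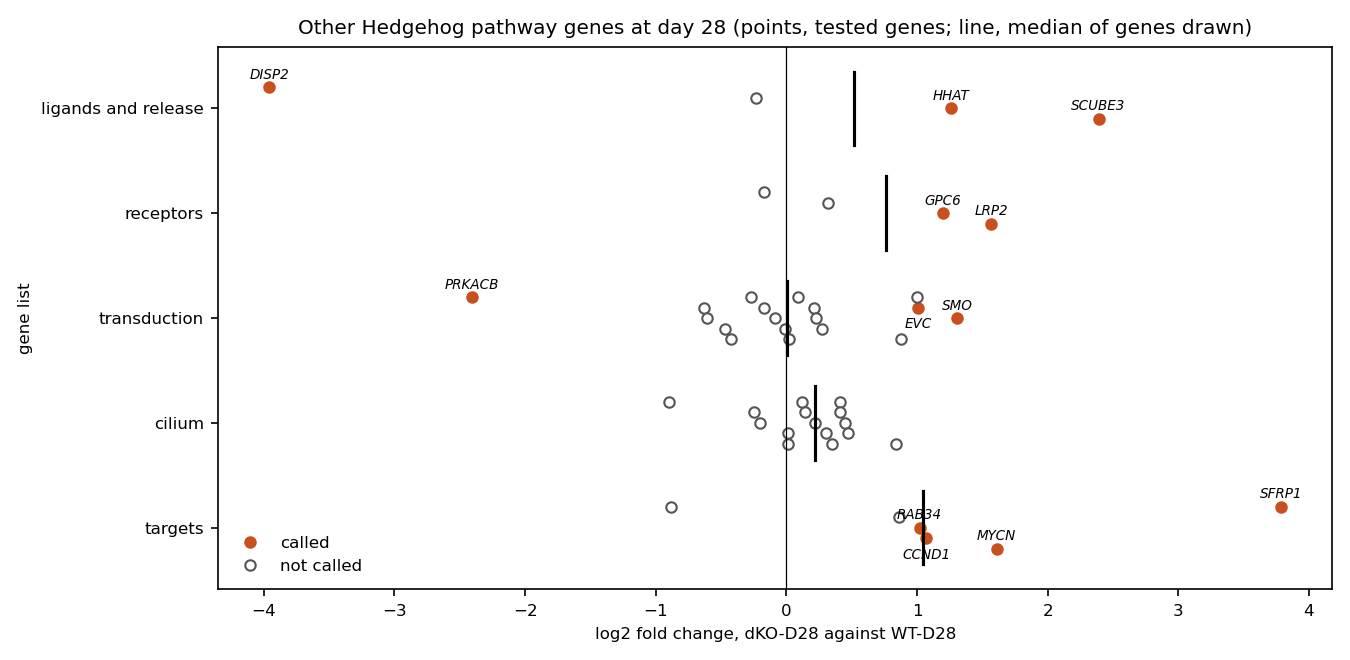
Log2 fold change of dKO-D28 against WT-D28 (x axis) for tested genes of 5 lists of other Hedgehog pathway genes (y axis; filled, called; open, not called; line, median of the genes drawn, 1 tested gene being left out; vertical offsets within a list only separate points). The 15 cilium genes are all open and lie between -1 and 1, while DISP2 lies near -4 and SFRP1 near 4.

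Genes that mark the ventral and dorsal sides of the neural tube and forebrain also differed between the genotypes. Of 14 ventral genes 5 were tested, and at day 28, 4 of them were lower in dKO and 0 were higher, where 11.7% of all genes were lower. NKX2-1, a transcription factor of the ventral forebrain, was at 354 and 348 CPM in WT-D28 and at 1.91 and 0.19 CPM in dKO-D28 (-8.47 ± 0.28). It was at 66.9 and 70.5 CPM in WT, against 87.3 and 116 CPM in dKO at passage 2, and at passage 4 it was lower in dKO, at 0.461 and 0.725 CPM against 23.0 and 21.8 CPM (-5.17 ± 0.43). LHX8, which acts with it in the same region, was at 111 and 118 CPM in WT-D28 and at 0.478 and 0.38 CPM in dKO-D28 (log2 fold change -7.97 ± 0.33). LHX6 was at 40.2 and 40.0 CPM against 0.478 and 0 CPM, a WT to dKO ratio of counts of 189 (52.2 to 1570). LHX6, LHX8 and NKX6-2, which make up 3 of the 4 lower genes, passed the filter only through WT-D28, so their part of the count was fixed by the filter and their values are a description. With a filter of 1 count in any sample, 17.3% of all genes were called at day 28. Of the 12 ventral genes then tested, 5 were lower and 2 higher in dKO. The 2 were GSX2 (2.17) and FOXA1 (2.12). GSX2 was at 9.075 and 1.711 CPM in dKO-D28 and at 1.182 and 0.991 CPM in WT-D28. FOXA1 was at 0.716 and 3.612 CPM in dKO-D28 and at 0.118 and 0.793 CPM in WT-D28, so its groups overlapped. NKX2-1 rose from passage 2 to day 28 in WT (2.35 ± 0.19). NKX2-2 and FOXA2 had 0 counts in every sample. Without dKO-D28 sample 1 or 2, 11 and 10 of the 13 ventral and dorsal genes tested were called at day 28.

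Of 12 dorsal genes 8 were tested. All 8 were higher in dKO at passage 4, where 11.1% of all genes were higher, and 7 were higher at day 28, where 12.4% were. GDF7, LMX1A, MSX1, MSX2 and PAX3 passed the filter only through dKO at passage 4, so these 5 had to differ there and the counts are a description. With GC content and gene length offsets 6 were called at passage 4, without BMP7 (0.81) and PAX3, and 5 at day 28, without MSX2 and PAX3. MSX1 at day 28 was at 0.58 without dKO-D28 sample 2, and BMP7 at passage 4 at 1.00 without WT passage 4 sample 1, and neither was then called. The exception at day 28 was BMP7, at 96.0 and 142 CPM in dKO-D28 and 156 and 148 CPM in WT-D28. PAX3, PAX7, MSX1 and MSX2 are also known from neural crest cells, whose markers are given above, and the part of such cells in these levels was not tested. PAX7, a transcription factor of the dorsal neural tube, was at 69.5 and 61.2 CPM in dKO-D28 and had 0 counts in both WT-D28 samples, so it was at least 200-fold higher by a floor of 3 counts per library. By the same floor the mean of the dKO-D28 samples was at least 54.9-fold higher for PAX3 and at least 26.8-fold higher for MSX2. The 2 samples stood far apart, at 5.015 and 30.8 CPM for PAX3 and at 2.87 and 14.6 CPM for MSX2, so sample 1 alone gives smaller bounds. At passage 4, MSX2 was at 87.2 and 84.1 CPM in dKO and 1.97 and 1.01 CPM in WT (log2 fold change 5.87 ± 0.72), and PAX3 had 0 counts in WT and was at 31.6 and 32.6 CPM in dKO. BMP4, a dorsal signal, was at 19.9 and 16.9 CPM in dKO and 0.658 and 0.253 CPM in WT at passage 4, a ratio of counts of 42.9 (14.4 to 210). The median log2 fold change of the 8 genes at day 28 was 6.48, and 4.65 with the 4 genes that had 0 counts in WT-D28 set at their lower bounds. At passage 2, PAX7 was at 6.66 and 8.36 CPM in dKO and at 0 and 2.94 CPM in WT, and its call was lost with adjusted p-values. In WT, BMP7 rose (1.36 ± 0.18) and BMP4 fell (-4.23 ± 0.78) from passage 2 to day 28, and PAX7 was at 0 in both WT-D28 samples.

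**Figure D4:**
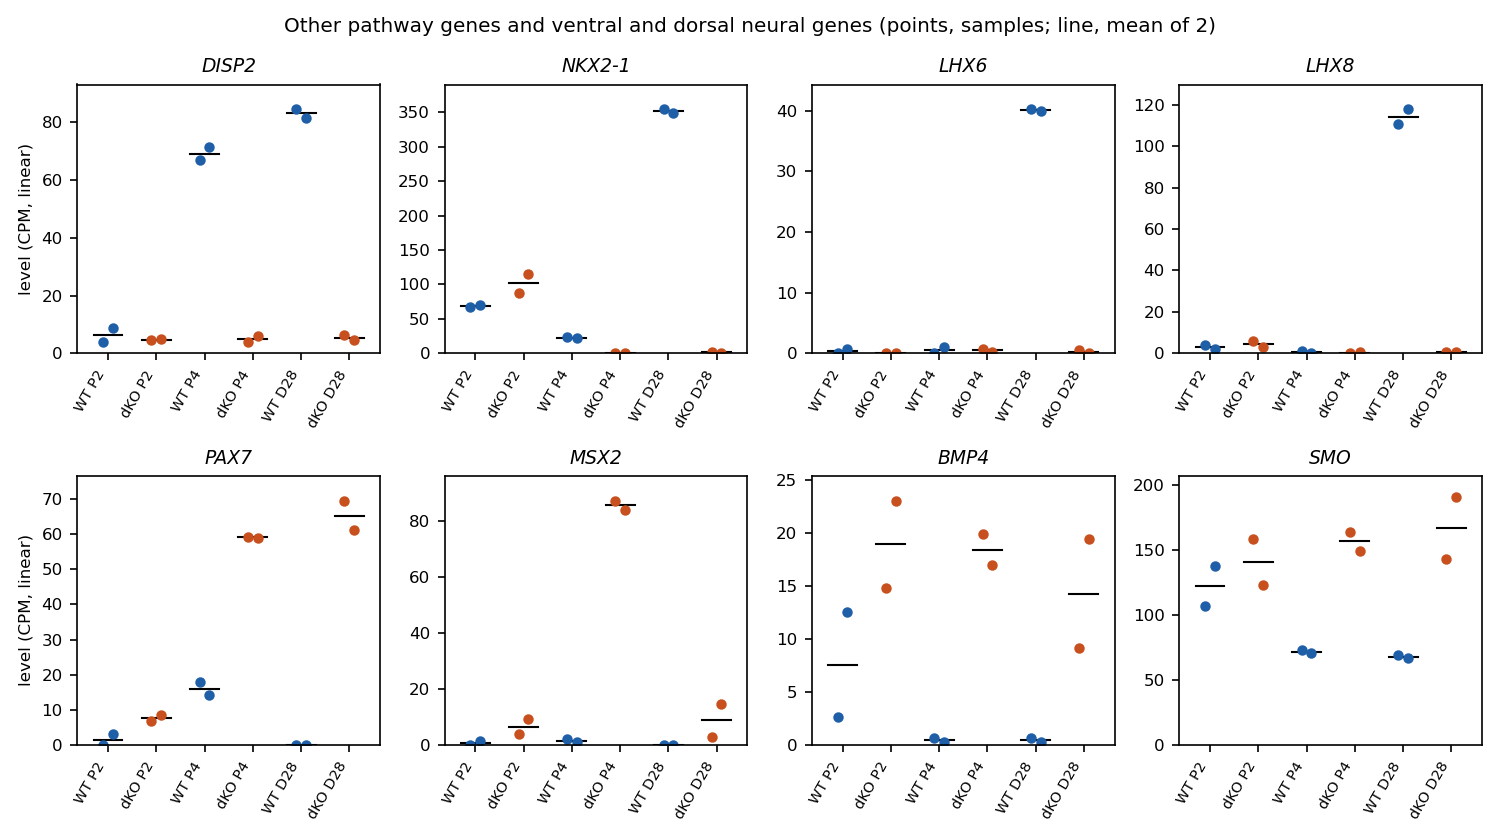
Level (CPM, linear axis starting at 0) of DISP2, of the ventral genes NKX2-1, LHX6 and LHX8, of the dorsal genes PAX7, MSX2 and BMP4, and of SMO in the 2 samples of each group (blue, WT; orange, dKO), with a line at the mean. DISP2 and the ventral genes are highest in WT-D28, and the dorsal genes are higher in dKO than in WT at passage 4 and day 28.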

How the data were processed

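The authors mapped reads from NextSeq sequencing of TruSeq libraries to hg38 with HISAT2 2.0.4, sorted them with SAMtools 1.3.1 and counted them with HTSeq 0.6.0. The values the authors deposited are raw counts per Ensembl gene for 58302 genes, without normalization or filtering. The annotation release and strand setting of the counting are not given in the sources used here. The authors' DESeq 1.18.1 test and their correction for GC content and length are not part of these counts. GENCODE v44 gave symbols, coordinates and exon lengths (57532 genes, 98.7%, with 99.8% of counts), and RefSeq gave promoter windows on GRCh38.p14.

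After TMM normalization, edgeR 4.0.16 (R 4.3.3; quasi-likelihood, robust) fitted 6 group means to the 12 samples for all genes averaging 20 counts or more. A call needed a fold change above 2 at an unadjusted p below 0.05, as in the study, and adjusted p-values are Benjamini-Hochberg over all genes tested. The SE is the log2 fold change over the square root of F, so it rests on the spread within all 6 groups and not only those compared. With 2 samples a group, an exact permutation test cannot go below p = 0.333. The 10 genes and all lists were chosen with earlier results of these data known. From each list, up to 3 called genes per direction with the largest log2 fold change were named, for the comparisons of the genotypes and for day 28 against passage 2 in WT. SUFU, IHH, DHH, NKX2-2, FOXA2, FOXA1, GSX2, NKX6-2, KIF7, PRKAR1A, TULP3, KIF3A and RAB34 at day 28, GDF7, LMX1A, MSX1, the marker genes and the progenitor and pluripotency genes fall outside that rule and were chosen after their values were seen. Of the genes that the rule names, 2 are included in the counts of their lists and are not reported here. Intervals of ratios are exact binomial at 95% and cover counting error only.

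Alternatives were DESeq2 1.42.0, adjusted p-values, a filter of 1 count in any sample or of 10 in every sample, a fit of only the groups compared, offsets for GC content and gene length in 10 bins, the replicate number as a block, and leaving out each sample. Same-numbered samples deviated together with correlations of -0.0582 to 0.194 across genes, so the numbers were not taken to pair the samples. No batch is labelled, and groups and batches cannot be told apart.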

Additional observations from a re-analysis of the deposited data

Results flagged for a closer look

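The change from passage 2 to day 28 differed between dKO and WT for the 9 Hedgehog genes in the edgeR fit. The genes were listed with these samples' fold changes known, and SHH and HHIP passed the filter only through WT-D28, so the differences are a description and not a test, and HHIP was not called with GC content and gene length offsets (-2.75). The log2 difference, dKO minus WT, was -7.09 for SHH, 5.03 for SCUBE1, -1.74 for PTCH1, -4.12 for HHIP, 4.25 for BOC, 4.13 for CDON, 7.33 for GAS1, 3.63 for GLI2 and 3.74 for GLI3. The same contrast was called for 12 of the 48 other pathway genes and for 5 of the 13 ventral and dorsal genes tested, with 23.2% of all genes called. No result about these lists is read from these counts.

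The change from passage 2 to passage 4 also differed, by -3.67 for SHH, 2.02 for SCUBE1 and 1.43 for BOC. It was called for 10 of the 48 other pathway genes and 3 of the 13 ventral and dorsal genes, with 19.3% of all genes called. These values and counts too are a description, and no result about the lists is read from them.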

How the results depend on the processing

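Over 1521 recomputed fold changes of the Hedgehog genes, 1417 kept their value within the spread of replicates, 104 moved and 0 called values changed sign. Of 889 recomputed calls, 20 were lost and 18 gained. The genes called at day 28 numbered 9 in each fit that left out a sample, 7 with at least 10 counts in every sample, where fewer genes are tested, and 10 with GLI1 added. With at least 1 count in any sample, 1 gene, GLI1, was called at passage 2. HHIP between passages 2 and 4 in WT lost its call in 11 alternatives, and its value ran from 1.70 to 6.41 without a sample. HHIP was also lost in the difference between genotypes to day 28 with GC and length offsets (-2.75) and without dKO passage 2 sample 1 (-3.52). The drop of PTCH1 to day 28 in dKO was -0.88 with offsets and -0.94 without dKO passage 2 sample 1, and CDON between passages in dKO was 0.83 with offsets. With offsets HHIP in dKO was called at 3.07 for day 28 and 3.20 for passage 4 against passage 2. GAS1 gained a call for the difference of the passage effect with DESeq2 (1.75), with the block and without either dKO-D28 sample (1.78 and 1.77). For GAS1 the value with all samples was 1.77 ± 0.75, close to the values just given, and this error includes the spread of dKO-D28. The causes of the changed calls were not tested.

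Other pathway genes called at passage 2 numbered 0 to 3 when a sample was left out, against 1. Ventral and dorsal genes called at passage 2 numbered 1 to 4 when a sample was left out, 6 with at least 1 count in any sample, and 0 both with adjusted p-values and with 10 counts in every sample, against 2. With 10 counts in every sample, where 1 of these genes is tested, they numbered 1 at passage 4, 0 at day 28 and 1 between passage 2 and day 28 in WT, and 10 in the last with at least 1 count in any sample. With the replicate number as a block, a single effect shared by all groups, the Hedgehog genes called were 0 at passage 2, 4 at passage 4, 9 at day 28, and 2 between passages in WT, where 3 were called without it. The depth of passage 2 limits SHH, HHIP and GLI1, whose counts there were 0 to 19.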
